A study of Mus musculus with 8 samples.

Results

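Hepatic stellate cells are the pericyte-like cells of the liver sinusoid, and 10 genes that mark them were followed in livers of METTL3-HKD and METTL3-Flox mice after ischemia/reperfusion (I/R). The members were the rows of the deposited table whose symbol is Lrat, Reln, Hgf, Rgs5, Ngfr, Acta2, Tagln, Des, Pdgfra or Pdgfrb, which is 10 of the 54532 genes listed. RNA was taken from whole livers of 4 METTL3-HKD mice (METTL3 flox/-; Alb-iCre, described in the study as heterozygous) and 4 METTL3-Flox littermates (METTL3 flox/flox), all after 1 h of partial warm ischemia and 6 h of reperfusion. The albumin promoter drives the Cre recombinase in hepatocytes, so stellate cells are not the cells in which the allele was to be removed. Age and sex of these mice are not given in the sources used here, and livers without I/R were not analysed here.

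In a resting liver, stellate cells store vitamin A as retinyl esters, release hepatocyte growth factor and other signals to hepatocytes, and carry reelin and neurotrophin receptor among their surface and secreted proteins. After injury, they lose the retinoid droplets, respond to platelet-derived growth factor, take up smooth muscle actin and other contractile proteins, and deposit collagen. Vascular smooth muscle of the portal vessels makes the same contractile proteins, and desmin is also a filament protein of skeletal muscle. The members were therefore read in 3 groups, which are quiescence genes (Lrat, Reln, Hgf, Rgs5 and Ngfr), activation genes (Acta2 and Tagln) and lineage genes that mark the cells in both states (Des, Pdgfra and Pdgfrb).

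The promoters of Acta2, Des and Lrat are shown because each stands for 1 of the 3 groups of members. Each window runs from 250 bases before to 50 bases after the RefSeq transcription start (GRCm38.p6) and is written 5′ to 3′ on the strand of the gene. Capitals mark a CArG box, the site of serum response factor in genes of contractile proteins, with at most 1 mismatch.
Acta2 (chr19:34255324-34255623, minus strand): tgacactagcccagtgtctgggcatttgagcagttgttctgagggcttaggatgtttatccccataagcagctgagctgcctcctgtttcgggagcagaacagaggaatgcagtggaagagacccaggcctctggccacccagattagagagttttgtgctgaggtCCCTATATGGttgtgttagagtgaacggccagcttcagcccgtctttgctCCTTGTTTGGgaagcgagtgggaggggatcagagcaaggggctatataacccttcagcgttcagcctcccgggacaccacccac
Des (chr1:75360042-75360341, plus strand): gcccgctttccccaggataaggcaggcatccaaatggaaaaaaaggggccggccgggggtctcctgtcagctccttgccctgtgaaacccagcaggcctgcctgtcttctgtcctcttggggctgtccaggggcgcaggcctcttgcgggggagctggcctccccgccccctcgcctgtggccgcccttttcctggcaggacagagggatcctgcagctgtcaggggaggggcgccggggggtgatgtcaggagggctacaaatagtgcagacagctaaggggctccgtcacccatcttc
Lrat (chr3:82903925-82904224, minus strand): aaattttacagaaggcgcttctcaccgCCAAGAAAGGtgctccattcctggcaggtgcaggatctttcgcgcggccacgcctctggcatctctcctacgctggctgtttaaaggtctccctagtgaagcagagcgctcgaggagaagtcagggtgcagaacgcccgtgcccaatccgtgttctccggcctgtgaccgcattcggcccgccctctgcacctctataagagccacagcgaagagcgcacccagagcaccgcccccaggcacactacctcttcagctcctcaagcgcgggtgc
The Acta2 window held 2 such matches, whose first bases lie at −84 and −34 from the start, and the Lrat window held 1, at −223. Each of these matches had 1 mismatch, and the Des window held none. Of all 32851 RefSeq promoters of this length, 21.1% held at least 1 such match. The motifs CANNTG and TGANTCA, both read the same on either strand like the CArG box, were found in 72.3% and 7.81% of all promoters. CANNTG had 3 matches in the Acta2 window, 2 in the Des window and 1 in the Lrat window, none of which overlapped a CArG box, and TGANTCA had 0 in all 3. RefSeq promoters were at hand for 8 of the 10 members.

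The members were present at low to middle levels in every liver. On the FPKM scale (fragments counted per kilobase of a gene and relative to the size of its library), the means put Rgs5 highest and Tagln lowest in both genotypes. In METTL3-Flox livers, the mean order was Rgs5, Lrat, Hgf, Pdgfrb, Ngfr, Des, Pdgfra, Reln, Acta2 and Tagln, from 6.95 down to 0.112 FPKM. The ranges of neighbours in this order overlapped except between Lrat and Hgf and between Acta2 and Tagln. In METTL3-HKD livers, the order was Rgs5, Des, Hgf, Acta2, Pdgfrb, Lrat, Ngfr, Pdgfra, Reln and Tagln, and only the steps from Pdgfra to Reln and from Reln to Tagln had no overlap of ranges. By mean, Lrat ranked 2 of 10 in METTL3-Flox livers and 6 of 10 in METTL3-HKD livers, while Acta2 ranked 9 and 4. All 10 members passed the minimum mean of 0.1 FPKM over the 8 livers, Tagln narrowly, and were tested among 16645 genes.

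Reads on genes, rebuilt from the FPKM, ranged from 15961479 to 18434488 in METTL3-HKD livers and from 15861245 to 17262991 in METTL3-Flox livers. Hepatocyte genes dominated every library, with 8 hepatocyte markers summing to between 25703 and 38506 FPKM. Mettl3 itself ranged from 1.17 to 1.56 FPKM in METTL3-HKD and from 1.16 to 1.84 FPKM in METTL3-Flox livers (log2 fold change −0.16, limma adjusted p = 0.556), so its whole-gene level did not separate the labelled genotypes. In the study, loxP sites flanked only part of the gene, and METTL3 ablation in liver was reported from a separate measurement. Of the exon bases of Mettl3, 18.4% are shared with Tox4. All 9 skeletal muscle genes on a list were present in METTL3-HKD livers 1 and 3, with sums of 78.8 and 134.6 FPKM, whereas the sum lay between 0.562 and 1.14 FPKM in the other 6 livers. The called members, Acta2, Pdgfra and the lists with called genes whose count changed by over 1.5 times are given with and without both.

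Differences between the genotypes were tested by limma on the log2(FPKM + 0.1) scale and adjusted over all 16645 genes. At an adjusted p under 0.05, 2 members were higher in METTL3-HKD mice (Hgf and Des), 1 was lower (Lrat) and 7 did not pass. Of all tested genes, 9.05% were called higher and 6.63% lower, 15.7% in all. An unadjusted p under 0.05 was found for 5 members and for 31.9% of all tested genes. The genotypes did not overlap for 3 members (22.6% of all tested genes), with the METTL3-HKD livers above for 2 (12.7%) and below for 1 (9.95%). The median log2 fold change of the members was 0.22, against −0.00 for all tested genes. Of the called members, only Des also had a log2 fold change of at least 1, the fold threshold of the study, which 4.7% of all tested genes passed upward and 1.52% downward. When METTL3-HKD livers 1 and 3 were both left out, 0 members were called higher and 0 lower, a comparison of 2 against 4 livers in which genes called higher in METTL3-HKD were 684 and genes called lower in METTL3-HKD were 247, against 1506 and 1104 with all livers. The log2 fold changes of the called members were then −0.91 for Lrat, 0.59 for Hgf and 0.61 for Des (limma adjusted p = 0.109, 0.0868 and 0.145).

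**Figure D1:**
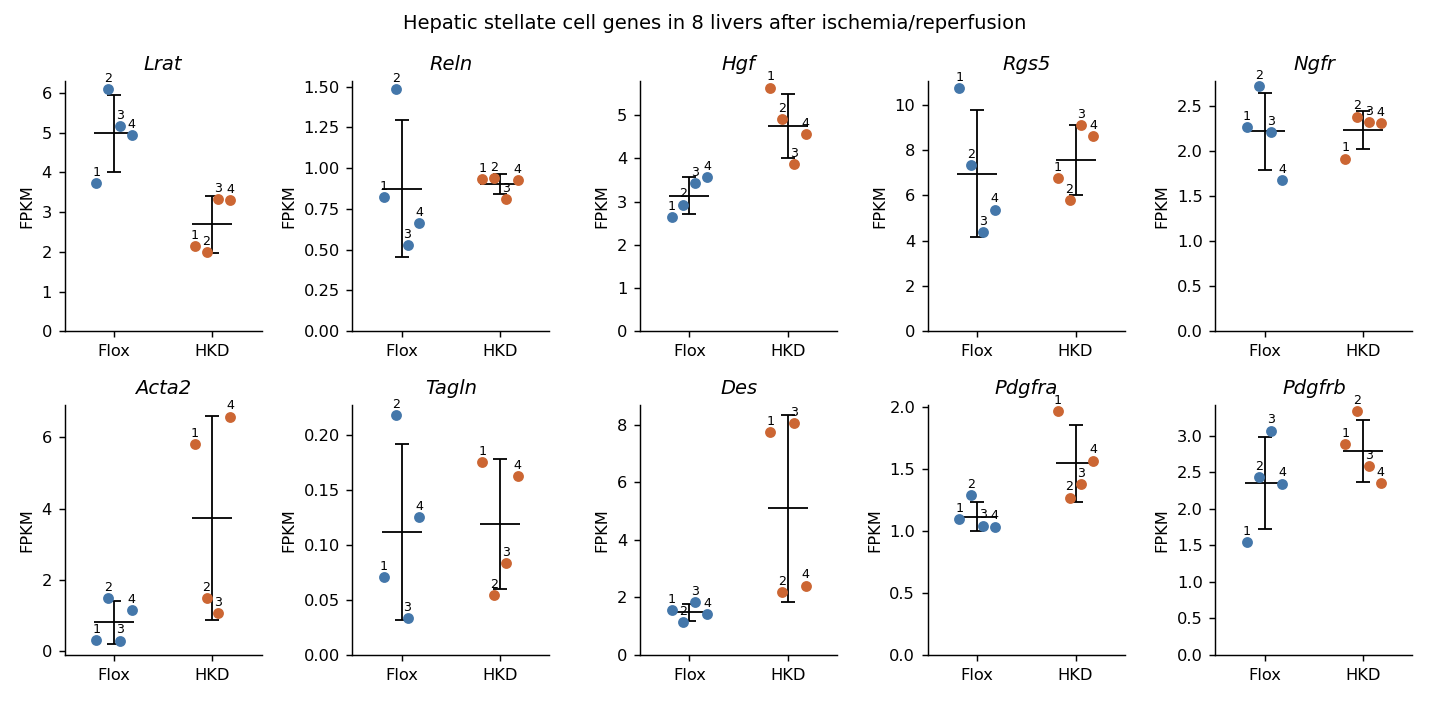
FPKM of the 10 stellate cell genes in each liver. Each point is a liver, numbered as in the labels, with METTL3-Flox in blue and METTL3-HKD in orange. The horizontal bar is the mean and the whiskers are the SD (n = 4). Lrat and Hgf separate the genotypes with modest spread. Des also separates them, but is far higher in METTL3-HKD livers 1 and 3 than in 2 and 4. Acta2 overlaps between the genotypes and is raised in METTL3-HKD livers 1 and 4.

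Lrat encodes lecithin retinol acyltransferase, the enzyme that esterifies retinol for storage in stellate cells. In GRCm38 the gene spans 82892579 to 82903973 of chromosome 3, and its exons share no base with another annotated gene. Lrat had 2.15, 1.99, 3.33 and 3.30 FPKM across METTL3-HKD livers 1 to 4, against 3.72, 6.10, 5.18 and 4.95 FPKM across METTL3-Flox livers 1 to 4. All METTL3-HKD livers were lower than all METTL3-Flox livers, and livers 1 and 2 were the lowest. The mean fell from 4.98 ± 0.977 to 2.69 ± 0.722 FPKM (SD, n = 4 each), a log2 fold change of −0.88 (95% interval −1.36 to −0.40, limma adjusted p = 0.0265). The exact permutation test gave p = 0.0286, the smallest that 4 against 4 livers allow. In whole liver RNA, fewer stellate cells and less Lrat RNA per cell cannot be told apart.
The direction of Lrat held with each liver left out, with log2 fold changes from −1.01 to −0.75, but the call did not. The limma adjusted p was 0.0799 without METTL3-HKD liver 1 and 0.0688 without METTL3-HKD liver 2. It was 0.0736, 0.0770 and 0.0666 when METTL3-Flox livers 2, 3 and 4 were left out in turn. When the scaling used the reads counted on genes in a library, the median of all genes moved to 0.20 and Lrat had −0.67 (limma adjusted p = 0.0555), which is −0.87 relative to that median.

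Hgf encodes hepatocyte growth factor, the ligand that stellate cells supply to the Met receptor of hepatocytes. It lies on chromosome 5 from 16553495 to 16620152. Hgf had 5.64, 4.91, 3.87 and 4.55 FPKM across METTL3-HKD livers 1 to 4, against 2.63, 2.93, 3.42 and 3.57 FPKM across METTL3-Flox livers 1 to 4. The groups did not overlap, although METTL3-HKD liver 3 lay close to METTL3-Flox liver 4. The mean rose from 3.14 ± 0.434 to 4.74 ± 0.738 FPKM (SD, n = 4 each), a log2 fold change of 0.58 (95% interval 0.25 to 0.90, limma adjusted p = 0.0304, exact permutation p = 0.0286). Of its exon bases, 6.74% are shared with Gm43489, a transcript of unknown status on the same strand at 0.249 FPKM. Hgf and Lrat, both quiescence genes, thus changed in opposite directions in the same livers.
Without METTL3-HKD livers 1, 2 or 4, the limma adjusted p of Hgf was 0.0811, 0.0776 and 0.0600, and without METTL3-Flox livers 1, 2 or 3 it was 0.0560, 0.0780 and 0.0619. With single livers left out, its log2 fold change was 0.49 to 0.67. Cells other than stellate cells can make Hgf, and 6 of 6 tested neutrophil markers were called higher, with a summed level of 327 to 1595 FPKM in METTL3-HKD and 12.6 to 43.8 FPKM in METTL3-Flox livers. Their part in the level of Hgf was not tested.

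The other quiescence genes were not called. Reln encodes reelin, a secreted glycoprotein that stellate cells make in the liver. It had 0.934, 0.939, 0.812 and 0.925 FPKM across METTL3-HKD livers 1 to 4, against 0.824, 1.48, 0.529 and 0.665 FPKM across METTL3-Flox livers 1 to 4. The METTL3-HKD livers sat inside the wider METTL3-Flox range, with coefficients of variation of 6.74% and 48.3%, a difference in spread that was not tested. The log2 fold change was 0.13 (95% interval −0.47 to 0.73, limma adjusted p = 0.780).
Rgs5, a regulator of G protein signaling that marks pericytes, had 6.77, 5.80, 9.08 and 8.60 FPKM across METTL3-HKD livers 1 to 4, against 10.7, 7.34, 4.38 and 5.37 FPKM across METTL3-Flox livers 1 to 4. METTL3-Flox livers 1 and 3 held both extremes. The interval of its log2 fold change, −0.42 to 0.78 around 0.18, leaves room for a change in either direction (limma adjusted p = 0.683).
Ngfr encodes the low-affinity neurotrophin receptor. It had 1.92, 2.39, 2.33 and 2.31 FPKM across METTL3-HKD livers 1 to 4, against 2.27, 2.73, 2.21 and 1.68 FPKM across METTL3-Flox livers 1 to 4. The values of both genotypes were interleaved, and the interval of the log2 fold change was the narrowest among the quiescence members after that of Hgf (−0.33 to 0.38 around 0.02, limma adjusted p = 0.939). Rgs5, Reln and Ngfr changed sign when single livers were left out, so no direction is given for them.

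**Figure D2:**
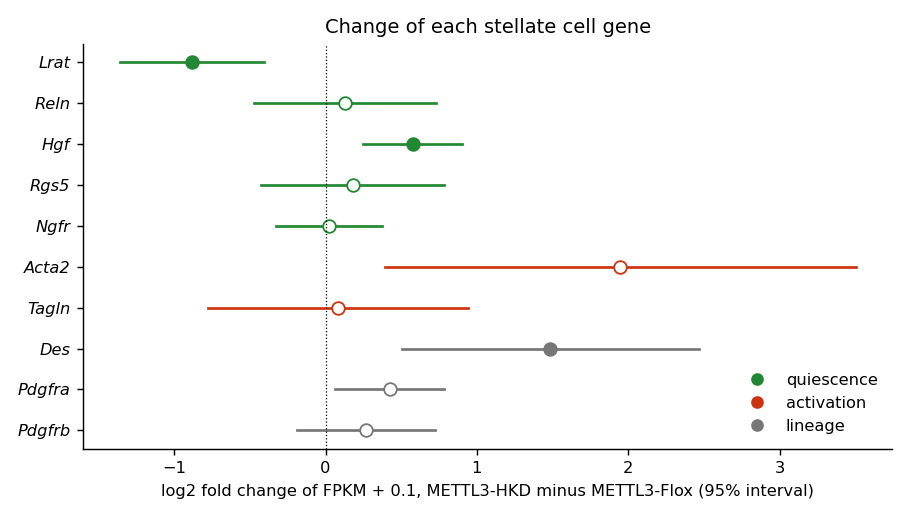
Log2 fold change of each member on the log2(FPKM + 0.1) scale, METTL3-HKD minus METTL3-Flox, with the 95% interval of limma as a line. Filled points passed the adjusted threshold and open points did not. Lrat lies at −0.88 (−1.36 to −0.40) and Hgf at 0.58 (0.25 to 0.90), while the interval of Acta2 reaches from 0.39 to 3.50.

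Acta2 encodes α-smooth muscle actin, the classical protein of activated stellate cells and of vascular smooth muscle. It lies on chromosome 19 from 34241090 to 34255336 in the deposited table. Acta2 had 5.81, 1.49, 1.06 and 6.59 FPKM across METTL3-HKD livers 1 to 4, against 0.316, 1.49, 0.295 and 1.15 FPKM across METTL3-Flox livers 1 to 4. METTL3-HKD livers 1 and 4 stood above all others, whereas livers 2 and 3 lay within the METTL3-Flox range. The means were 3.73 ± 2.87 and 0.814 ± 0.604 FPKM (SD, n = 4 each), a log2 fold change of 1.95 with a wide interval (0.39 to 3.50) that did not pass the threshold (limma adjusted p = 0.0855, exact permutation p = 0.143). Without METTL3-HKD liver 3, the lowest of its group, the log2 fold change was 2.39 and passed (limma adjusted p = 0.0486). That was the only 1 of 18 alternatives in which Acta2 passed. Without METTL3-HKD liver 1 or 4, the log2 fold change was 1.61 and 1.55 (limma adjusted p = 0.221 and 0.183). These values rest on 34 to 218 reads in METTL3-HKD livers and 8 to 43 reads in METTL3-Flox livers.
Some genes of smooth muscle, but not all, were highest in the same livers as Acta2. Myh11, the smooth muscle myosin heavy chain, reached 1.11, 0.214, 0.233 and 1.38 FPKM across METTL3-HKD livers 1 to 4 and 0.167, 0.521, 0.164 and 0.237 FPKM across METTL3-Flox livers 1 to 4. Within METTL3-HKD mice, livers 1 and 4 were also the highest for Actg2 and Lmod1 of the vascular smooth muscle list and for Cnn1 and Myl9 of the contractile list. Hspb6 and Synpo2 were instead highest in METTL3-HKD liver 3, at 4.86 and 0.219 FPKM, and Pln in liver 2, at 0.0784 FPKM. Within METTL3-Flox mice, liver 2 was the highest for Acta2, Myh11, Cnn1 and Myl9, liver 1 for Actg2, Lmod1 and Synpo2, and liver 4 for Hspb6. None of the 4 tested vascular smooth muscle markers was called, and 0 had an unadjusted p under 0.05 with limma. Their summed level was 3.65 to 7.17 FPKM in METTL3-HKD and 4.64 to 5.31 FPKM in METTL3-Flox livers, most of it Hspb6, which had 3.78 ± 0.808 and 4.48 ± 0.489 FPKM (SD, n = 4 each). Their part in the level of Acta2 was not tested. The actin genes are close paralogs that could share reads, which was not tested. Acta1 had 37.4 and 61.8 FPKM in METTL3-HKD livers 1 and 3, where Acta2 had 5.81 and 1.06 FPKM. Without METTL3-HKD livers 1 and 3, Acta2 had a log2 fold change of 2.11 (limma adjusted p = 0.203).

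Tagln encodes transgelin, an actin-binding protein usually found together with Acta2. It had 0.175, 0.0544, 0.0835 and 0.162 FPKM across METTL3-HKD livers 1 to 4, against 0.0708, 0.218, 0.0331 and 0.125 FPKM across METTL3-Flox livers 1 to 4. This is 2 to 7 reads in METTL3-HKD livers and 1 to 7 reads in METTL3-Flox livers, so Tagln is poorly measured at this depth. No change was called (log2 fold change 0.08, 95% interval −0.77 to 0.94, limma adjusted p = 0.908). The 0.1 FPKM added before the log is close to its means of 0.119 FPKM in METTL3-HKD and 0.112 FPKM in METTL3-Flox livers, which understates any change. Of its exon bases, 62.4% are shared with the antisense gene Gm48529 and 5.43% with Pcsk7, both on the opposite strand, and how the counting treated such bases is not given in the sources used here. METTL3-HKD livers 1 and 4 and METTL3-Flox liver 2, the highest for Myh11, were also the highest for Tagln.

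Des encodes desmin, the intermediate filament by which rodent stellate cells are recognised. It lies on chromosome 1 from 75360329 to 75368579. Des had 7.75, 2.18, 8.05 and 2.41 FPKM across METTL3-HKD livers 1 to 4, against 1.56, 1.14, 1.82 and 1.41 FPKM across METTL3-Flox livers 1 to 4. All METTL3-HKD livers lay above all METTL3-Flox livers, but livers 1 and 3 far more so than livers 2 and 4. The mean was 5.10 ± 3.24 against 1.48 ± 0.286 FPKM (SD, n = 4 each), a log2 fold change of 1.49 that passed narrowly (95% interval 0.50 to 2.47, limma adjusted p = 0.0491, exact permutation p = 0.0286).
METTL3-HKD livers 1 and 3 are also the livers with skeletal muscle transcripts. Acta1, the skeletal muscle actin, had 37.4 and 61.8 FPKM there and at most 0.0428 FPKM in the other 6 livers, and Ckm, Myh1 and Tnnt3 showed the same split. Tpm2, a tropomyosin of muscle, had 7.14 and 8.68 FPKM in livers 1 and 3 and at most 1.25 FPKM elsewhere. When both livers were left out, Des had a log2 fold change of 0.61 (limma adjusted p = 0.145), with 2.18 and 2.41 FPKM still above the METTL3-Flox maximum of 1.82 FPKM. The share of Des that skeletal muscle RNA contributes was not tested.
With single livers left out, Des passed only without METTL3-HKD liver 2 or 4. The limma adjusted p was 0.132 and 0.0914 without METTL3-HKD livers 1 and 3, and 0.0847, 0.122, 0.0950 and 0.108 without METTL3-Flox livers 1 to 4. The log2 fold change then ranged from 1.19 to 1.80.

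**Figure D3:**
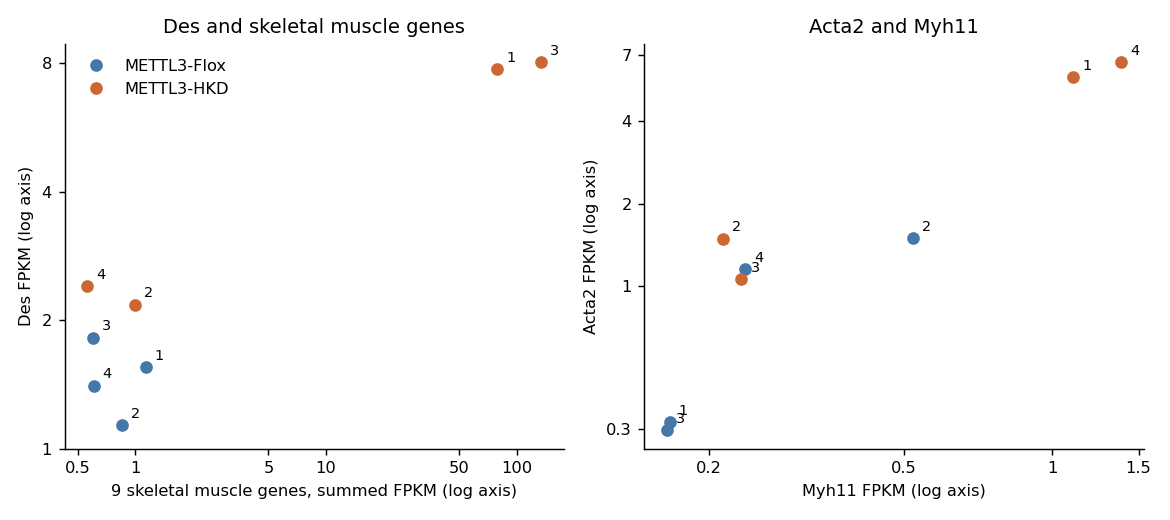
Left, FPKM of Des against the summed FPKM of 9 skeletal muscle genes, and right, FPKM of Acta2 against that of Myh11, each on log axes with 1 point per liver, numbered as in the labels. METTL3-Flox is blue and METTL3-HKD orange. Des is highest in METTL3-HKD livers 1 and 3, with muscle sums of 78.8 and 134.6 FPKM, and Acta2 is highest in livers 1 and 4, with Myh11 at 1.11 and 1.38 FPKM.

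Pdgfra and Pdgfrb encode the receptors through which platelet-derived growth factor drives migration and growth of stellate cells. Pdgfra had 1.97, 1.27, 1.38 and 1.57 FPKM across METTL3-HKD livers 1 to 4, against 1.10, 1.29, 1.04 and 1.03 FPKM across METTL3-Flox livers 1 to 4. Only METTL3-Flox liver 2 lay above a METTL3-HKD liver, liver 2. The log2 fold change was 0.42 (95% interval 0.06 to 0.78) and did not pass (limma adjusted p = 0.104, exact permutation p = 0.0571).
Pdgfrb had 2.89, 3.34, 2.59 and 2.36 FPKM across METTL3-HKD livers 1 to 4, against 1.54, 2.44, 3.07 and 2.35 FPKM across METTL3-Flox livers 1 to 4. The groups overlapped, with METTL3-Flox liver 1 the lowest, and the log2 fold change was 0.27 (95% interval −0.19 to 0.72, limma adjusted p = 0.401). Pdgfra reached the threshold with scaling to the reads on genes (0.62, which is 0.43 relative to the median of all genes, limma adjusted p = 0.0493), and Pdgfrb did not. Without METTL3-HKD livers 1 and 3, Pdgfra had 0.32 (limma adjusted p = 0.317).

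Of the 5 quiescence members, 1 was called higher, 1 lower and 3 not, and their summed level was 16.0 to 19.7 FPKM in METTL3-HKD and 15.7 to 20.6 FPKM in METTL3-Flox livers. Of the 2 activation members, 0 were called, with a summed level of 1.14 to 6.75 FPKM and 0.329 to 1.71 FPKM. Beside these counts of calls, and those of the lists below, stand the shares of all tested genes, 9.05% higher and 6.63% lower. The liver order also differed, since Lrat was lowest in METTL3-HKD livers 1 and 2 and Acta2 was highest in livers 1 and 4.

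A wider set of 18 genes known from quiescent stellate cells, such as transcription factors, collectins and bone morphogenetic proteins, was read alongside. Of the 17 tested, 4 were called lower, 0 higher and 13 not, with a median log2 fold change of −0.46 against −0.00 for all tested genes. Those called were Colec11, Hand2, Vipr1 and Angptl6. Colec11, a collectin of innate immunity, fell from 15.2 ± 5.78 to 5.82 ± 1.44 FPKM (SD, n = 4 each, log2 fold change −1.34, limma adjusted p = 0.0153). Vipr1, the receptor of vasoactive intestinal peptide, and Angptl6, an angiopoietin-like protein, had log2 fold changes of −0.86 (limma adjusted p = 0.0154) and −0.77 (limma adjusted p = 0.00987). Hand2, a transcription factor of the stellate lineage, had −0.89 (limma adjusted p = 0.0455). Dcn, the proteoglycan decorin and the most abundant of the list, was not called, with 25.9 ± 2.68 and 24.7 ± 8.30 FPKM (SD, n = 4 each). Bmp10, a bone morphogenetic protein, had a log2 fold change of 0.76, opposite to the called genes, and was not called (limma adjusted p = 0.184). The count was 3 to 5 with each liver left out and 2 without METTL3-HKD livers 1 and 3. Of the exon bases of Hand2 and Angptl6, 19.6% and 16.8% are shared with another gene.

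Among 16 further genes of activated stellate cells, 14 were tested, of which 4 were called higher, 0 lower and 10 not, with a median log2 fold change of 0.70. Tnc, the matrix protein tenascin C, rose from 0.101 ± 0.0482 to 2.01 ± 1.09 FPKM (SD, n = 4 each, log2 fold change 3.27, limma adjusted p = 0.00301). Vim, the filament protein vimentin, Lox, the lysyl oxidase that cross-links collagen, and Ctgf, connective tissue growth factor, had log2 fold changes of 1.76, 1.84 and 1.43 (limma adjusted p = 0.00915, 0.0218 and 0.0261). The 3 fibrillar collagen genes of the list were not called, with log2 fold changes of 0.82 for Col1a1, 0.13 for Col1a2 and 0.80 for Col3a1 (limma adjusted p = 0.156, 0.814 and 0.257). Timp1, an inhibitor of matrix metalloproteinases, had 1.59 (limma adjusted p = 0.0836), and Sparc, the most abundant of the list, had 0.28 (limma adjusted p = 0.111). Postn went the other way, with a log2 fold change of −0.73, and was not called (limma adjusted p = 0.184). Vimentin is also made by leukocytes and endothelium, and the neutrophil markers given above moved with it, a part that was not tested. The count of called genes fell to 2 without METTL3-Flox liver 3, without METTL3-Flox liver 4 and without METTL3-HKD livers 1 and 3. Ctgf shares 23.2% of its exon bases with another gene.

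Of 14 tested genes of the contractile apparatus and its regulators, 5 were called higher and 0 lower, with a median log2 fold change of 0.80. They were Actg1, Cnn2, Flna, Smtn and Srf. Actg1, the cytoplasmic γ-actin, rose from 37.0 ± 8.64 to 130 ± 54.0 FPKM (SD, n = 4 each, log2 fold change 1.76, limma adjusted p = 0.00564), and Smtn, smoothelin, from 0.790 ± 0.128 to 1.73 ± 0.138 FPKM (log2 fold change 1.05, limma adjusted p = 0.00504). Srf, the serum response factor that binds CArG boxes, had 0.58 (limma adjusted p = 0.0440), while Cnn2 and Flna had 1.17 and 1.15. Most of the called genes are made by many cell types. The smooth muscle genes Cnn1 and Myl9 were not called (log2 fold changes 1.03 and 1.32, limma adjusted p = 0.263 and 0.168), nor was Tpm2 (2.09, limma adjusted p = 0.0546). The count was 3 without METTL3-Flox liver 2, 3 or 4 and 4 without METTL3-HKD livers 1 and 3. Smtn shares 16.3% of its exon bases with other genes.

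**Figure D4:**
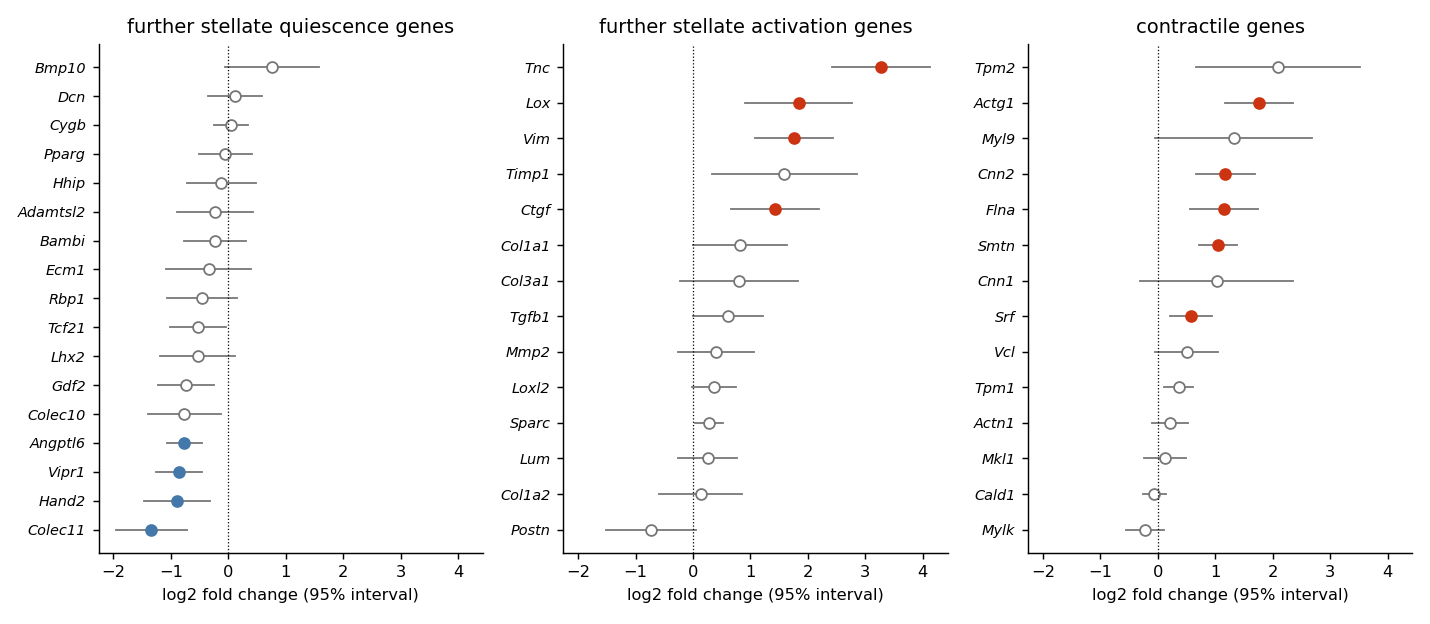
Log2 fold changes on the log2(FPKM + 0.1) scale, METTL3-HKD minus METTL3-Flox, of the further quiescence, activation and contractile genes that were tested, with 95% intervals of limma as lines. Red points were called higher, blue points lower, and open points were not called. Colec11 at −1.34 and Tnc at 3.27 are the extremes among the called genes.

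The partners of the members were followed from ligand to receptor. Hgf is secreted as an inactive precursor that is cut by Hgfac and Hpn (hepsin), and Spint1 is among the inhibitors of both proteases. Hgfac had 24.9, 25.3, 30.9 and 36.0 FPKM across METTL3-HKD livers 1 to 4, against 43.1, 58.9, 53.4 and 42.3 FPKM across METTL3-Flox livers 1 to 4, a log2 fold change of −0.76 (limma adjusted p = 0.0160). Hpn had 53.2 to 69.4 FPKM in METTL3-HKD and 91.6 to 96.3 FPKM in METTL3-Flox livers (log2 fold change −0.62, limma adjusted p = 0.00953). For both proteases, all METTL3-HKD livers lay below all METTL3-Flox livers. Spint1 rose from 0.143 ± 0.0468 to 0.579 ± 0.273 FPKM (SD, n = 4 each, log2 fold change 1.39, limma adjusted p = 0.0371). Its ranges overlapped, and it rested on 10 to 45 reads in METTL3-HKD and 4 to 8 reads in METTL3-Flox livers. Spint2, a more abundant relative of Spint1 on the same list, had 13.7 to 17.7 FPKM in METTL3-HKD and 18.9 to 25.2 FPKM in METTL3-Flox livers. Unlike Spint1, Spint2 thus lay lower, without overlap, but was not called (log2 fold change −0.38, limma adjusted p = 0.0654). Met, the receptor, had 13.1 ± 1.39 and 15.4 ± 2.92 FPKM (SD, n = 4 each) and was not called (log2 fold change −0.22, limma adjusted p = 0.353). Of the 8 tested genes of the HGF pathway, 1 was called higher and 2 lower, with a median log2 fold change of −0.10. The call of Spint1 was lost without METTL3-HKD liver 1, 2 or 4 or METTL3-Flox liver 2, 3 or 4, and only 1 gene was called lower without METTL3-Flox liver 3 or without METTL3-HKD livers 1 and 3.

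Of the 4 PDGF ligands, 1 was called higher and 0 lower. Pdgfb, the ligand of Pdgfrb, had 1.65, 1.72, 0.772 and 0.957 FPKM across METTL3-HKD livers 1 to 4, against 0.237, 0.580, 0.474 and 0.314 FPKM across METTL3-Flox livers 1 to 4. The groups did not overlap (log2 fold change 1.44, limma adjusted p = 0.0195). Pdgfa, the most abundant of the ligands, had 0.53 (limma adjusted p = 0.0520). The call of Pdgfb was lost without METTL3-HKD liver 1 or 2 or METTL3-Flox liver 4. Without METTL3-HKD livers 1 and 3, Pdgfb was not called. The called ligand Pdgfb thus stood beside a receptor, Pdgfrb, that was not called, and whether ligand and receptor differed in change was not tested.

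**Figure D5:**
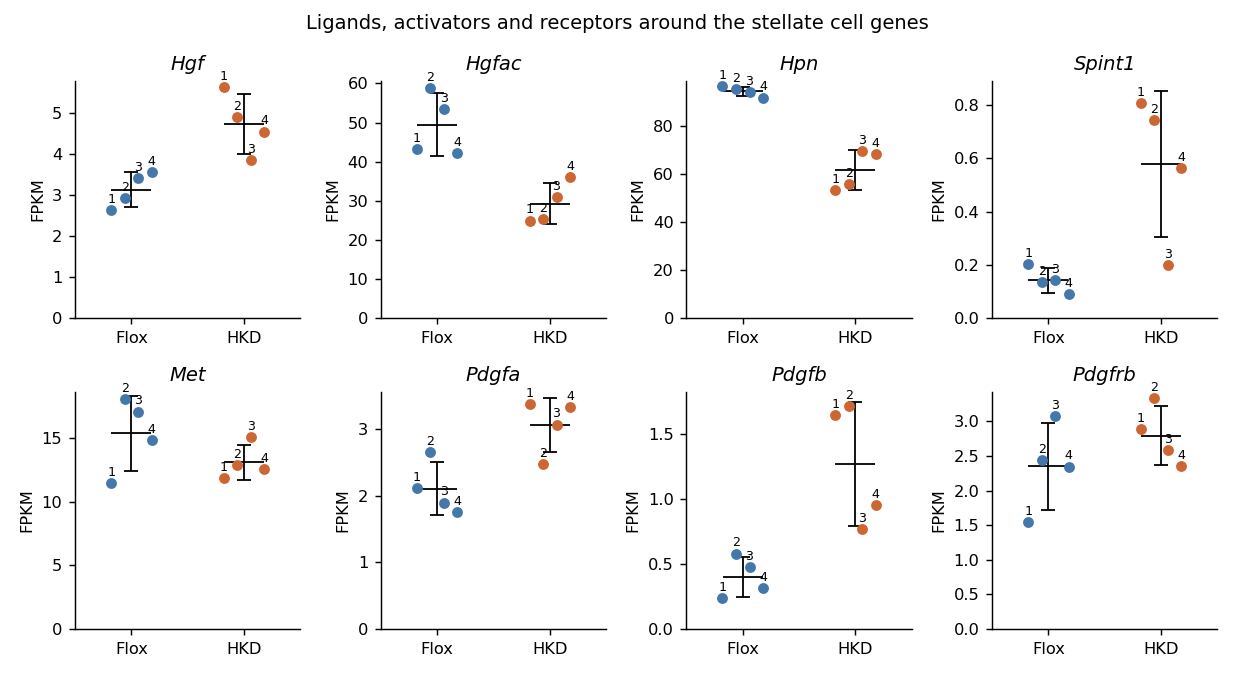
FPKM of Hgf, its activators Hgfac and Hpn, Spint1 from among the inhibitors of these, the Hgf receptor Met, and the ligands Pdgfa and Pdgfb with the receptor Pdgfrb. Each point is a liver, numbered as in the labels, and the bar and whiskers are the mean and SD (n = 4). METTL3-HKD livers are higher for Hgf and Pdgfb and lower for Hgfac and Hpn without overlap, whereas Spint1, Met, Pdgfa and Pdgfrb overlap.

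Lrat was also set beside other genes of retinoid handling, most of which hepatocytes express. Of the 11 tested, 1 was called higher and 4 lower, with a median log2 fold change of −0.12. Cyp26a1, the enzyme that degrades retinoic acid and is induced by it, had 1.35, 4.39, 3.68 and 1.88 FPKM across METTL3-HKD livers 1 to 4, against 10.3, 5.62, 11.4 and 6.87 FPKM across METTL3-Flox livers 1 to 4 (log2 fold change −1.65, limma adjusted p = 0.0227). The retinoic acid receptor Rara, its partner Rxra and the dehydrogenase Aldh1a1 had log2 fold changes of −0.47, −0.45 and −0.51 (limma adjusted p = 0.0219, 0.0263 and 0.0386). Rdh10, a retinol dehydrogenase, rose from 6.33 ± 0.900 to 12.0 ± 2.44 FPKM (SD, n = 4 each, log2 fold change 0.90, limma adjusted p = 0.0115). Rbp4, the plasma carrier of retinol made by hepatocytes, had 1372 ± 103 and 1386 ± 180 FPKM (SD, n = 4 each). The count of lower genes was 0 without METTL3-Flox liver 3, without METTL3-Flox liver 4 and without METTL3-HKD livers 1 and 3, and 1 under scaling by reads on genes.
For reelin, 1 of 3 tested pathway genes was called. Vldlr, a reelin receptor, had 0.257 ± 0.0569 and 0.0699 ± 0.0296 FPKM (SD, n = 4 each, log2 fold change 1.07, limma adjusted p = 0.0320), a call that was lost without METTL3-HKD liver 1 or 4, without METTL3-Flox liver 2 or 4, and without METTL3-HKD livers 1 and 3. The call of Vldlr rested on 37 to 67 reads in METTL3-HKD livers and 7 to 17 reads in METTL3-Flox livers. Crk, the most abundant of that list, had 0.27 (limma adjusted p = 0.0729). Of 10 tested relatives of Rgs5, only Rgs18, a gene of blood cells, was called (log2 fold change 1.54, limma adjusted p = 0.0192), and Rgs16, the most abundant of them, had 1.31 (limma adjusted p = 0.366). The call of Rgs18 rested on 6 to 16 reads in METTL3-HKD livers and 0 to 2 reads in METTL3-Flox livers.

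Markers of other cells that could hold the members' transcripts were read in the same way. Of 6 tested portal fibroblast markers, 0 were called and 2 had an unadjusted p under 0.05 with limma, and their sum was 3.11 to 6.40 FPKM in METTL3-HKD and 2.28 to 4.05 FPKM in METTL3-Flox livers. Of 5 mesothelial markers, 3 were called higher (Upk1b, Lrrn4 and Upk3b), with sums of 1.74 to 7.31 FPKM and 0.958 to 1.76 FPKM. None of these 3 was called without METTL3-Flox liver 3 or without METTL3-HKD livers 1 and 3. Of 8 sinusoidal endothelial markers, 1 was called lower (Oit3) and 0 without METTL3-HKD livers 1 and 3, with sums of 67.5 to 76.7 FPKM and 72.1 to 79.9 FPKM. Of 6 Kupffer cell markers, 4 were called lower, with sums of 62.6 to 140 FPKM and 140 to 347 FPKM, but 0 were called without METTL3-HKD liver 3 or 4, without METTL3-Flox liver 3 or 4, without METTL3-HKD livers 1 and 3, or under scaling by reads on genes. Of 5 tested cholangiocyte markers, 4 were called higher, with sums of 119 to 369 FPKM and 52.5 to 77.6 FPKM, with 1 called without METTL3-Flox liver 3 and 2 without METTL3-HKD livers 1 and 3. The hepatocyte markers gave 0 calls in 8 genes and 0 with an unadjusted p under 0.05. The part of these cells in the members' levels was not tested.

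Genes whose pattern over the 8 livers was most like that of a member were sought among protein-coding genes averaging 1 FPKM or more, after the group means were removed. For Lrat, Cadps2 and Cryl1 were among the 3 most alike of 9798 genes, and their log2 values followed those of Lrat with Pearson coefficients of 0.97 and 0.97 (Spearman 1.00 and 0.98) over 8 livers. For Pdgfra the closest 3 were Helb, Slc16a3 and Emp1 (Pearson 0.97, 0.96 and 0.95, Spearman 0.93, 0.90 and 0.90), and for Acta2 they were Bclaf1, Zfp869 and Kctd9 (Pearson 0.92, 0.91 and 0.91, Spearman 0.76, 0.76 and 0.81). These coefficients are the highest among many genes over few livers that share library and scaling, and are given as a description only. No member was among the closest 3 of these 3 genes.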

How the data were processed

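RNA was sequenced from livers of 4 METTL3-HKD and 4 METTL3-Flox mice, grouped by their labels. The authors deposited FPKM for 54532 genes with the gene length used, on GRCm38 per the labels. The aligner, counter and strand setting are not given in the sources used here. Multiplied by length, the FPKM gave whole reads (within 0.05) for 100% of non-zero values, with library sizes already scaled between livers. Positions were set against GENCODE M21, in which 9 of the 10 members had the same coordinates, and Acta2 starts further upstream.

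Genes averaging 0.1 FPKM or more were compared on log2(FPKM + 0.1), which understates changes of low genes, with limma 3.58.1 in R 4.3.3 (trend, Benjamini-Hochberg adjustment over 16645 genes, two-sided). For single members, an exact permutation test of FPKM (two-sided) was added. The labels do not say more about the origin of replicates than separate mice. On simulated data of 16291 genes, limma called 198 of 200 changed and 13 unchanged genes. The changes planted there were larger than those of Lrat, Hgf and Des, and only in genes averaging 1 FPKM or more. Random noise was set alike for every gene, so the result does not give the power for the members. The 95% intervals are those of limma for the mean log2 difference between the genotypes, whereas the SD gives the spread between livers.

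The members and lists were chosen with earlier results of these data known. Beside the members and Mettl3, the rule named up to 3 called genes with the smallest p and the most abundant gene of each list, and genes alike in pattern. Myh11, Actg2, Lmod1, Synpo2, Pln, Cnn1, Myl9, Tpm2, Timp1, Postn, Bmp10, Col1a1, Col1a2, Col3a1, Met, Spint2, Aldh1a1, Rxra, Hand2, Ctgf, Flna, Srf, Ckm, Myh1 and Tnnt3 were named after their values were seen. A few results are not reported here.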

Additional observations from a re-analysis of the deposited data

Results flagged for a closer look

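In 7 of the 146 sets of 4 livers examined, 1 liver stood apart from the other 3 by Dixon's criterion, and chance alone flags about 1 in 20 sets. Among the members, METTL3-HKD liver 3 was low for Reln, at 0.812 FPKM against 0.925 to 0.939 FPKM in the other 3. METTL3-HKD liver 1 was low for Ngfr, at 1.92 FPKM against 2.31 to 2.39 FPKM. Liver 1 of the METTL3-HKD mice was also high for Vim, at 31.0 FPKM against 10.7 to 13.4 FPKM, and for Actg1, at 210 FPKM against 96.2 to 115 FPKM. METTL3-Flox liver 2 was high for the contractile gene Myl9, at 1.86 FPKM against 0.566 to 0.748 FPKM. METTL3-Flox liver 1 was high for the Kupffer cell gene Vsig4, at 38.8 FPKM against 20.6 to 22.4 FPKM. Acta1 had 0.0428 FPKM in METTL3-Flox liver 3 and 0 in the other 3 METTL3-Flox livers.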

How the results depend on the processing

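The results were recomputed under 18 alternatives, and without METTL3-HKD livers 1 and 3 together, an alternative chosen after seeing the data. Over most of the single named genes and all alternatives, direction and side of the threshold were kept 1167 times. The call was lost 186 times and gained 17 times, and the sign changed 22 times. Members called higher, 2 as reported, were 1 with a pseudocount of 1 FPKM, no minimum, no mean-variance trend, array quality weights, the replicate block or voom on rebuilt reads. The call lost was that of Hgf with the replicate block and that of Des with the others. Des lost its call in 11 of the 18 alternatives. Members called higher were 3 under scaling by reads on genes (Hgf, Des and Pdgfra), and 0 to 2 with each liver left out. Members called lower, 1 as reported, were 0 under scaling by reads on genes and 0 to 1 with each liver left out. As reported, genes called higher in METTL3-HKD were 1506 and genes called lower in METTL3-HKD were 1104. These were 2310 and 374 under scaling by reads on genes (86.1% higher against 57.7%), and 971 and 645 with the replicate block. Lower genes were 682 with no minimum. With each liver left out, 737 to 1653 genes were called higher and 347 to 1123 lower, and without METTL3-HKD livers 1 and 3 there were 684 and 247, with 0 and 0 members. Leaving out livers tests fewer samples, and the cause of the other shifts was not tested. Factors by median of ratios came to 1.01 for each of the 8 livers, so that alternative could hardly move a result. Replicate numbers did not pair the livers, since same-numbered livers correlated at −0.0838 to 0.0711 in their deviations from the group means and not every liver correlated best with its own number. Under the block, Hgf had a limma adjusted p of 0.0882.

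Sign changes all concerned genes that were not called. With each liver left out, log2 fold changes ranged from −0.053 to 0.39 for Reln, −0.012 to 0.41 for Rgs5, −0.10 to 0.13 for Ngfr, −0.11 to 0.30 for Tagln, −0.041 to 0.32 for Dcn, −0.25 to 0.046 for Entpd2 and −0.13 to 0.055 for Alb. The Rbp4 log2 fold change then ranged from −0.064 to 0.076. Scaling to the reads on genes gave 0.047 for Mettl3, 0.21 for Rbp4, 0.080 for Entpd2 and 0.19 for Alb. Array quality weights gave 0.068 for Rbp4 and 0.031 for Alb, and leaving out METTL3-HKD livers 1 and 3 gave 0.073 and 0.026. Reln and Tagln were not tested with the minimum of 1 FPKM. Depth limits Tagln most, with at most 7 reads per liver.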
